A study of Arabidopsis thaliana with 16 samples.

Results

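Whole rosettes of the autophagy mutant atg9 were compared with wild-type rosettes of the accession Col-0 after 60 days on low nitrate. The comparison rests on 4 of the 16 Affymetrix arrays of the study, 2 of atg9 and 2 of Col-0, taken by genotype, age and nitrate as the labels give them; 1 of the Col-0 arrays lacks the nitrate tag in its title and carries it in its other labels. The atg9 plants carry the line SALK_130796 and the Col-0 plants no mutation, and both grew with 2 mM nitrate in short days of 8 h light and 16 h dark. Each array holds RNA of pooled rosettes from more than 6 plants, and the 2 arrays of a genotype come from 2 cultures raised months apart, so n = 2 per group throughout and every difference can be read within each culture. Only 1 mutant line of ATG9 was measured.

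The other arrays used here are atg9 and Col-0 at 30 days on low nitrate, atg5 (allele atg5-3, line SALK_02060) at 30 and 60 days on low nitrate, and atg5 and Col-0 on 10 mM nitrate, each again with 1 array per culture. On high nitrate the age is unsettled, since some label fields say 30 days and others 60 days.

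Autophagy encloses cytoplasm in a double membrane, the autophagosome, and delivers it to the vacuole for breakdown. ATG9 is the transmembrane protein of the core machinery and moves in vesicles that bring lipid to the growing membrane, while ATG5 belongs to the conjugation system that attaches the small protein ATG8 to that membrane. In Arabidopsis rosettes autophagy recycles nitrogen from old leaves, and mutants that lack it are known for early leaf yellowing with raised salicylic acid.

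No probe set was named for ATG9 or ATG5, so the disrupted genes were not analysed here and the genotype labels were not checked on them. The leaf transcript RCA, for rubisco activase, had signals of 17246 and 24092 in atg9 and 21358 and 22130 in Col-0, the root transcript PYK10 515 and 341 in atg9 and 281 and 688 in Col-0, and the guard cell factor FMA 183 and 243 in atg9 and 213 and 178 in Col-0. The 2 atg9 arrays correlated at r = 0.936 across probe sets and the 2 Col-0 arrays at r = 0.953. The ratio of 3′ to 5′ signal of the GAPDH control, which is high in degraded RNA, was 2.06 and 1.64 on the atg9 arrays against 1.51 and 1.51 on the Col-0 arrays; that of actin was 18.8 and 11.7 in atg9 against 15.3 and 6.32 in Col-0. The ratios were thus somewhat higher in atg9 within each culture, and their part in the differences below was not tested. In pooled tissue, fewer cells of a type and less RNA per cell cannot be told apart.

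The probe sets past the threshold in atg9 against Col-0 at 60 days were almost all higher in atg9. Of 13648 probe sets tested, 73 rose in atg9 (0.535% of those tested) and 1 was lower (0.00733%), by limma with Benjamini-Hochberg adjustment at a threshold of 0.05. At an unadjusted p under 0.05 there were 701, 573 higher in atg9 and 128 lower; for 13648 tests with no difference 682.4 are expected at this threshold, here and in the comparisons below. Differences are given as log2 of (signal + 32) in atg9 minus the same in Col-0, where 1 unit is a 2-fold ratio; the added 32 keeps very dim probe sets from giving large ratios and understates their change. The 73 rose by 1.13 to 5.59, with a median of 3.14, and the median over all tested probe sets was -0.03. Of the 73, 35 had 1 gene name and 38 had none or several, so a large part of the transcripts that rose cannot be named here. The count depends on the scale and on each array: 6 passed with signals under 1 set to 1 and no 32 added, 12 with the dimmest 60% left out, and 1, 3, 7 and 1 when the atg9 array of culture 1, that of culture 2, the Col-0 array of culture 1 or that of culture 2 was left out. AT3G47540 passed in all of these, and 67 of the 74 passed in none of the 4 fits that lack an array.

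The 2 cultures gave the same asymmetry. Differences of 1 or more in both cultures were found for 305 probe sets higher in atg9 (2.23%) and 3 lower (0.022%), differences of 2 or more for 101 and 1, and of 3 or more for 40 and 0. Of the 305, 130 had 1 gene name, and of the 3 none had. Over all tested probe sets, 3856 were higher in both cultures, 4525 were lower in both and 5267 (38.6%) went opposite ways. Culture 1 gave the larger differences: 606 probe sets were higher by 1 or more and 212 lower in culture 1, against 369 and 59 in culture 2. The 73 had a median rise of 3.35 in culture 1 and 2.85 in culture 2, and 51 of them were larger in culture 1.

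**Figure D1:**
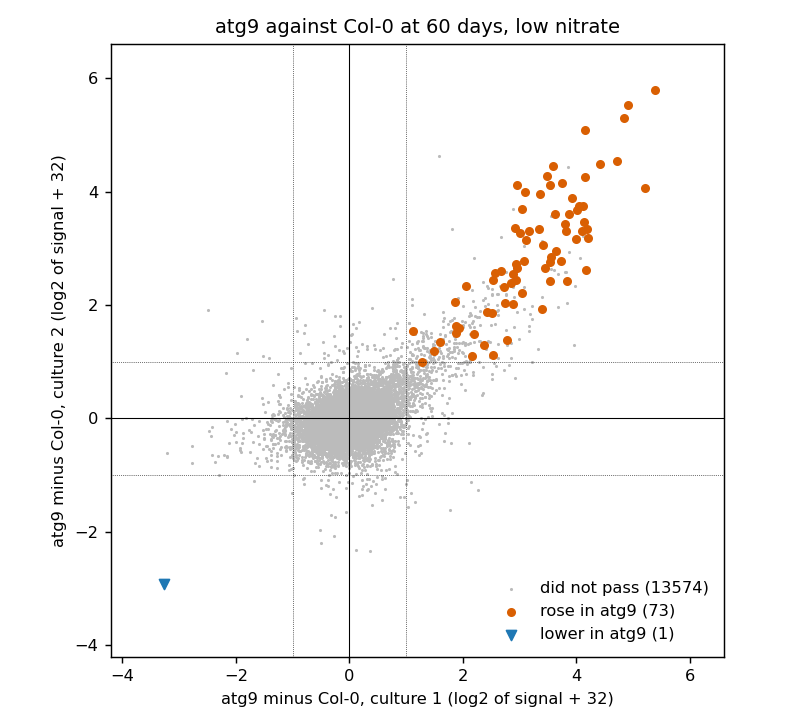
Difference between atg9 and Col-0 at 60 days on low nitrate in culture 1 (x axis) and culture 2 (y axis), both on log2 of (signal + 32), for the 13648 probe sets tested; dotted lines mark a difference of 1. The 73 probe sets that rose (orange) lie along the diagonal in the upper right, the 1 that was lower (blue triangle) lies alone in the lower left, and the grey cloud of the others is wider along the axis of culture 1.

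Most transcripts that rose were dim in the wild type. Over the 73, signals ran from 180 to 5949 on the atg9 arrays against 1.1 to 1119 on the Col-0 arrays, and the median of their mean signals was 979 in atg9 against 81.8 in Col-0. The medians over all tested probe sets were 506 in atg9 and 489 in Col-0. Of the 73, 61 had a mean signal over the median of atg9 and 68 a mean under the median of Col-0; the 73 were chosen on these arrays, so these counts only describe them.

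The smallest adjusted p of the comparison belonged to AT3G47540, of the chitinase family, whose enzymes cleave the chitin of fungal cell walls. Its signal was 1261 in culture 1 and 1265 in culture 2 of atg9, against 122 and 158 in Col-0. Both atg9 arrays were high and close to each other, and the rise was 2.92 ± 0.25 (SE of the limma fit, adjusted p = 0.000894). The related chitinase gene that the annotation calls CHI (AT2G43570) had 2326 and 1439 in atg9 against 104 and 127 in Col-0, a difference of 3.66 ± 0.74 that missed the threshold (adjusted p = 0.0594). Separation of the arrays alone is common in this comparison: 16.7% of all tested probe sets had both atg9 arrays above both Col-0 arrays.

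Of the 14 genes for chitinases and glucanases with a probe set, 6 were bright enough to be tested, 1 rose and none fell. The median difference over all 14, dim ones included, was 0.47, against -0.02 over all 22746 probe sets. In both cultures, 9 of the 14 were higher and 2 lower. Over all 22746 probe sets 6186 were higher in both and 6910 lower in both, which also stand beside the lists below. A gene that is bright only in the mutants passes the brightness limit through them, so the tested members of any list here are weighted towards those that rose.

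A set of 3 genes of the berberine bridge enzyme family, oxidases that carry a flavin and act on alkaloids, sugars and other small molecules, rose. AT1G30700 had 1232 and 962 in atg9 against 39.1 and 19.9 in Col-0, a rise of 4.21 ± 0.64 (adjusted p = 0.0182), the largest among genes with a name. AT1G26390 had 790 and 990 in atg9 against 47.9 and 33.5 in Col-0 and rose by 3.66 ± 0.57 (adjusted p = 0.0182). AT1G26380, the neighbouring gene on the chromosome and known as FOX1, an oxidase of indole-derived defence compounds, had 434 and 391 in atg9 against 28.4 and 32.1 in Col-0 and rose by 2.84 ± 0.53 (adjusted p = 0.0389). The rise was uneven across the family. Of 22 members with a probe set 8 were tested and 3 rose, against 0.535% of all tested probe sets. In both cultures, 6 of the 22 were higher by 1 or more, against 1.77% of all probe sets. At that size 0 were lower in both. By any amount, 13 of the 22 were higher in both cultures and 6 lower in both, against 6186 and 6910 of all 22746 probe sets. The bright member AT5G44400 lay at -0.32 and AT5G44410 at -0.33, neither past the threshold.

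Calcium-binding proteins formed another group. AT3G47480, for the EF-hand protein CML47, had 939 and 866 in atg9 against 36.3 and 135 in Col-0 and rose by 3.13 ± 0.43 (adjusted p = 0.0111). AT5G39670, for the related CML46, had 1240 and 1080 in atg9 against 85.1 and 145 in Col-0 and rose by 3.05 ± 0.48 (adjusted p = 0.0186). CML41, a calmodulin-like protein of the pores between plant cells, had 394 and 456 in atg9 against 47.2 and 100 in Col-0 and rose by 2.15 ± 0.41 (adjusted p = 0.0456), a call kept in 2 of 13 alternatives (adjusted p = 0.0422 to 0.828). For all 3 the Col-0 array of culture 2 was the brighter of the Col-0 pair, and the difference was accordingly larger in culture 1 (3.83, 3.44 and 2.43) than in culture 2 (2.43, 2.65 and 1.88).

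The calcium list held 24 genes, 18 of them tested. Of the 18, 3 rose, against 0.535% of all tested probe sets, 0 fell and 15 did not pass. Over all 24 the median difference was 0.55, and 6 were higher by 1 or more in both cultures, against 1.77% of all probe sets. AT1G21550 (CML44) lay at 2.19 ± 0.56 (adjusted p = 0.163). Further calmodulin-like members, named after their values were seen, ran from high to near 0. AT3G01830 (CML40) lay at 2.93, with 3.84 in culture 1 and 2.03 in culture 2, and did not pass. The untested CML37 lay at 1.47, and CML42, CML38 and CML30 lay at 0.02, 0.05 and 0.05. The glutamate receptor-like channels, named after their values were seen, were spread: ATGLR1.2 (1.92), GLR2.8 (1.13) and GLR2.9 (0.36) were untested, GLR1.4 (0.74) and GLR2.7 (0.71) did not pass, and GLR3.3, GLR3.5 and GLR3.6 lay between -0.31 and -0.17.

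Among immune receptors, AT1G57630, which encodes a TIR domain, the signalling domain of many plant resistance proteins, had 1512 and 1119 in atg9 against 51.7 and 95.7 in Col-0 and rose by 3.69 ± 0.54 (adjusted p = 0.0178). It was the 1 gene that rose among 21 tested of 51 with a TIR or NB-LRR description. Over the 51, 28 were higher in both cultures and 4 lower in both, the median was 0.25, and 7 (13.7%) were higher by 1 or more in both cultures, against 1.77% of all probe sets. Next by p came AT1G72890, at 1.33 ± 0.31 (adjusted p = 0.116).

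The receptor kinase gene AT1G51890 had 695 and 368 in atg9 against 37.1 and 14 in Col-0. Its difference of 3.26 ± 0.67 just missed the threshold (adjusted p = 0.0621). Of the 29 leucine-rich repeat receptor kinases with a probe set, 25 had a mean over all 16 arrays under the brightness limit; 4 were tested and 0 rose. The median over the 29 was 0.14, and 3 (10.3%) were higher by 1 or more in both cultures, against 1.77% of all probe sets. Among the 3 was AT1G51860, at 2.11, untested and named after its value was seen.

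The list for salicylic acid and pipecolate defence, the signals of systemic immunity, had 5 genes with a probe set, of which 4 were tested and 0 rose. All 5 were higher in both cultures, against 6186 of all 22746 probe sets, with a median of 1.2. AT5G52810, for SARD4, which completes the synthesis of pipecolic acid, had 671 and 469 in atg9 against 112 and 220 in Col-0, a difference of 1.64 ± 0.43 (adjusted p = 0.196). The senescence factor WRKY53 had 457 and 255 in atg9 against 154 and 111 in Col-0, a difference of 1.2 ± 0.75, and GRX480, a salicylic acid-induced glutaredoxin, lay at 1.29 ± 0.77; both had an adjusted p of 1. These members were higher in atg9 on both arrays, by amounts that the spread of the fit did not separate from 0.

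**Figure D2:**
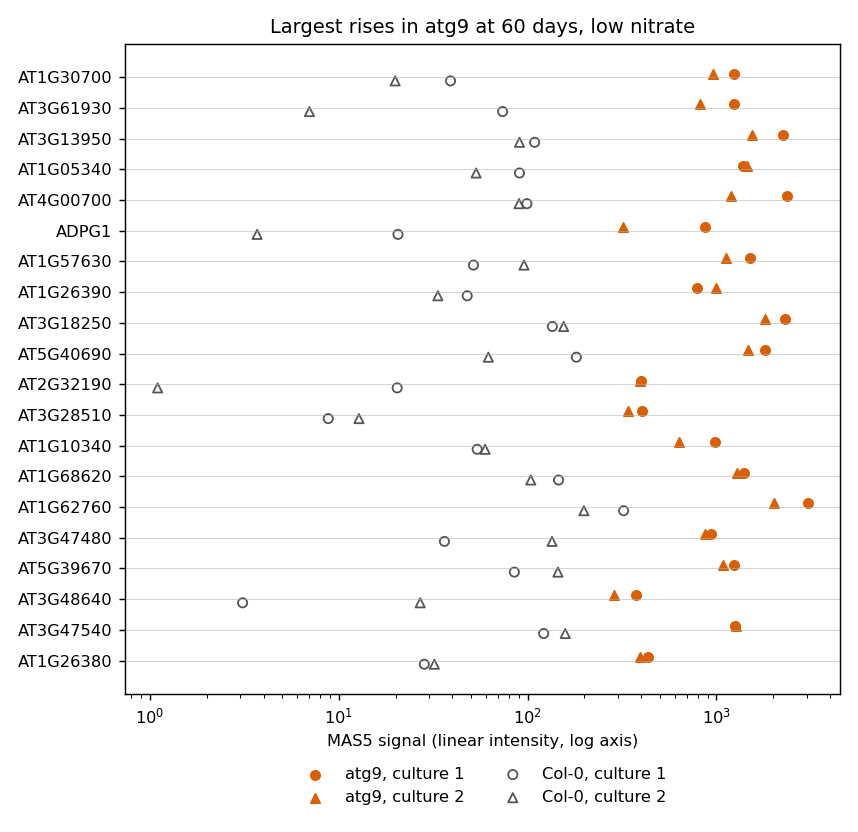
Signals (linear intensity on a log axis) of the 20 named genes with the largest passing rise, 1 row per gene, in atg9 (filled orange) and Col-0 (open grey) at 60 days on low nitrate; circles are culture 1 and triangles culture 2. In every row both atg9 arrays lie to the right of both Col-0 arrays. Col-0 signals run from 1.1 to 323 and atg9 signals from 286 to 3049. The genes were chosen on these arrays, and 16.7% of all tested probe sets separate this way.

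Other large rises were in single genes of different kinds. ADPG1, a polygalacturonase that cuts pectin where organs separate and fruits open, had 867 and 319 in atg9 against 20.6 and 3.7 in Col-0 and rose by 3.70 ± 0.63 (adjusted p = 0.0257). AT1G62760, for an inhibitor of pectin methylesterase, had 3049 and 2005 in atg9 against 323 and 199 in Col-0 and rose by 3.13 ± 0.58 (adjusted p = 0.0389). In the list of expansins, xyloglucan enzymes and pectin genes, 12 of 32 were tested, none passed, and the median over the 32 was -0.02. Most of its members are expansins and xyloglucan enzymes, and pectin genes on their own were not summarised. The pectin gene ATPMEPCRB was the highest tested member at 1.77, with 1.66 in culture 1 and 1.88 in culture 2. It was the 1 member of the 32 that was higher by 1 or more in both cultures.

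The 2 small cysteine-rich transmembrane proteins of the CYSTM family that met the naming rule, a family linked to stress tolerance, moved alike. AT1G05340 had 1386 and 1449 in atg9 against 90.6 and 53.4 in Col-0 and rose by 3.82 ± 0.70 (adjusted p = 0.0374). AT2G32190 had 398 and 394 in atg9 against 20.4 and 1.1 in Col-0 and rose by 3.36 ± 0.52 (adjusted p = 0.0182). For AT2G32190, and likewise for ADPG1, AT3G28510 and AT3G48640, both Col-0 signals lay under the lower quartile of their arrays (28.3 and 27.9), so the size of these rises rests on the added 32.

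AT4G00700, for a C2-domain membrane protein, had 2362 and 1200 in atg9 against 99.2 and 90.1 in Col-0 and rose by 3.76 ± 0.73 (adjusted p = 0.049). AT3G28510, for an ATPase of the AAA type, rose by 3.23 ± 0.58, the ankyrin-repeat gene AT1G10340 by 3.21 ± 0.61, and AT1G68620, of the alpha/beta hydrolase fold, by 3.14 ± 0.49. Their adjusted p-values were 0.0346, 0.0423 and 0.0182. Over the 3, atg9 signals ran from 341 to 1401 against 8.8 to 146 in Col-0.

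AT5G38710 encodes the second proline dehydrogenase of Arabidopsis, the mitochondrial enzyme that starts proline breakdown. It had 758 and 907 in atg9 against 71.2 and 141 in Col-0 and rose by 2.69 ± 0.46 (adjusted p = 0.0257). It was the 1 gene of 6 that rose in the list for oxidative and mitochondrial stress, whose median was -0.43, so the list as a whole did not share its direction. UGT87A2, a glycosyltransferase known from flowering time control, had 2234 and 1096 in atg9 against 361 and 486 in Col-0 and rose by 1.82 ± 0.36 (adjusted p = 0.049), a call kept in 2 of 14 alternatives (adjusted p = 0.0337 to 0.952). It was the 1 of 24 tested UDP-glycosyltransferases that rose, and the median over the 51 with a probe set was -0.09.

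The remaining genes of the naming rule that rose have no role stated here. AT3G61930 had 1240 and 822 in atg9 against 73.8 and 7.0 in Col-0 and rose by 4.02 ± 0.59 (adjusted p = 0.0181). AT3G13950 had 2252 and 1540 in atg9 against 109 and 90.6 in Col-0 and rose by 3.85 ± 0.53 (adjusted p = 0.0111). AT5G40690 had 1797 and 1466 in atg9 against 181 and 62.0 in Col-0 and rose by 3.55 ± 0.46 (adjusted p = 0.0111). AT3G18250 rose by 3.55 ± 0.59 (adjusted p = 0.0257) and AT3G48640 by 2.98 ± 0.57 (adjusted p = 0.0456). In each of the 5 both atg9 arrays lay above both Col-0 arrays, as in 16.7% of all tested probe sets. The 5 were chosen on these arrays.

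The autophagy genes themselves were of interest because ATG8 is a protein of the blocked pathway. ATG8H had 1030 and 844 in atg9 against 191 and 222 in Col-0, a difference of 2.02 ± 0.42 that missed the threshold (adjusted p = 0.0682). ATG8E had 1452 and 874 in atg9 against 308 and 411 in Col-0, a difference of 1.58 ± 0.43 (adjusted p = 0.246). ATG8A, listed as APG8A, had 2508 and 2070 in atg9 against 1157 and 1577 in Col-0, a difference of 0.74 ± 0.25 (adjusted p = 0.486). The 3 stood apart from the rest of the family, whose other 6 genes lay between 0.12 and 0.37. All 9 ATG8 genes were tested and 0 passed. Of the 9, 8 were higher in both cultures, against 28.3% of all tested probe sets.

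The genes of the core machinery outside ATG8 all lay below ATG8H and ATG8E. Of 9 genes of the core machinery with a probe set, 8 were tested and 0 passed, with a median of 0.23 over the 9. AT1G77890 (ATG14A), of the lipid kinase complex, lay at 0.91 ± 0.46 and AT5G66930 (ATG101), of the kinase complex that starts autophagy, at 0.71 ± 0.29. AT3G61960 (ATG1A), the kinase itself, lay at 0.47 ± 0.24, and ATG3, which hands ATG8 on to its lipid, at 0.08 ± 0.25.

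The 1 probe set that was lower in atg9 is not listed in the annotation, so it has no gene name here. Its signals were 1.9 and 3.7 in atg9 against 294 and 236 in Col-0, a difference of -3.09 ± 0.34 (adjusted p = 0.00492). With atg9 signals this low the size is set by the added 32: over 13 alternatives it ran from -6.64 to -2.30, with adjusted p-values of 0.000246 to 0.148, and 9 of the 13 passed. At 30 days it had 6.9 and 4.6 in atg9 against 298 and 189 in Col-0, a difference of -2.84 (adjusted p = 0.0373), and it was the 1 probe set past the threshold at that age. On the 12 arrays of Col-0 and atg5 its signals ran from 134 to 1015, so the 4 atg9 arrays, at 1.9 to 6.9, were the only dim ones of the 16. It was also the 1 probe set that differed between atg9 and atg5 at 60 days by direct test (adjusted p = 0.000286).

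No named gene fell past the threshold, and the smallest adjusted p among named genes that were lower was 0.274. Among the genes lowest in both cultures, TBL26, for a protein that acetylates cell-wall polysaccharides, had 343 and 3323 in atg9 against 1895 and 5643 in Col-0, a difference of -1.56 ± 0.72 (adjusted p = 0.988). AT1G27200 had 212 and 500 in atg9 against 636 and 860 in Col-0, a difference of -1.10 ± 0.37 (adjusted p = 0.487). For both genes atg9 was lower within each culture, and culture 2 was brighter than culture 1 in both genotypes.

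The anthocyanin genes showed the same dependence on culture in stronger form. UF3GT, which adds xylose to anthocyanins, had 273 and 4532 in atg9 against 1610 and 7132 in Col-0. AT4G14090, for the glucosyltransferase UGT75C1 of the same pathway, had 331 and 7483 in atg9 against 2461 and 10549 in Col-0. All 6 tested genes of the flavonoid and anthocyanin list were lower in both cultures, against 4525 of all 13648 tested probe sets, and 0 passed. The median over the 7 with a probe set was -1.91 in culture 1 and -0.43 in culture 2. The fitted difference of UF3GT was -1.54 ± 1.14 (adjusted p = 1).

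Cold and dehydration genes followed a like course. COR15A, a chloroplast protein made in the cold, had 1728 and 14551 in atg9 against 9523 and 18062 in Col-0, a difference of -1.38 ± 0.87 (adjusted p = 1), and COR15B lay at -0.92 ± 0.35 (adjusted p = 0.665). All 5 genes of that list were tested, 0 passed and 4 were lower in both cultures, with medians of -0.88 (culture 1) and -0.27 (culture 2). The atg9 array of culture 1 was the lowest of the 4 for UF3GT, AT4G14090 and COR15A alike.

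Genes of nitrogen supply did not pass either. NRT2.5, a high-affinity nitrate transporter made under nitrogen starvation, had 904 and 462 in atg9 against 283 and 234 in Col-0, a difference of 1.23 ± 0.64 (adjusted p = 1). AT1G25550, of a family of nitrate-responsive repressors, lay at 1.05 ± 0.35 (adjusted p = 0.487) and its relative AT1G68670 at 0.10 ± 0.36.

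Lists for the basic functions of the leaf had medians near 0. The 13 nuclear photosynthesis genes had a median of -0.09, the 7 proteasome genes -0.08, the 8 protease genes -0.17, the 7 histone genes -0.08, the 13 glutathione transferases -0.06 and the 54 peroxidases -0.04, and none of their tested members passed. The 69 plastid-encoded genes had medians of -0.27 (culture 1) and 1.02 (culture 2), so the cultures disagreed on their direction, and 0 of them passed. Folding helpers of the endoplasmic reticulum had a median of 0.15 (6 genes), auxin response genes 0.20 (15), WRKY factors 0.08 (7), senescence genes 0.22 (5), cytochromes P450 -0.02 (22), sugar transport and starch genes -0.24 (20) and sulfur genes of the aliphatic glucosinolates -0.07 (3). None of the tested members of these lists passed.

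**Figure D3:**
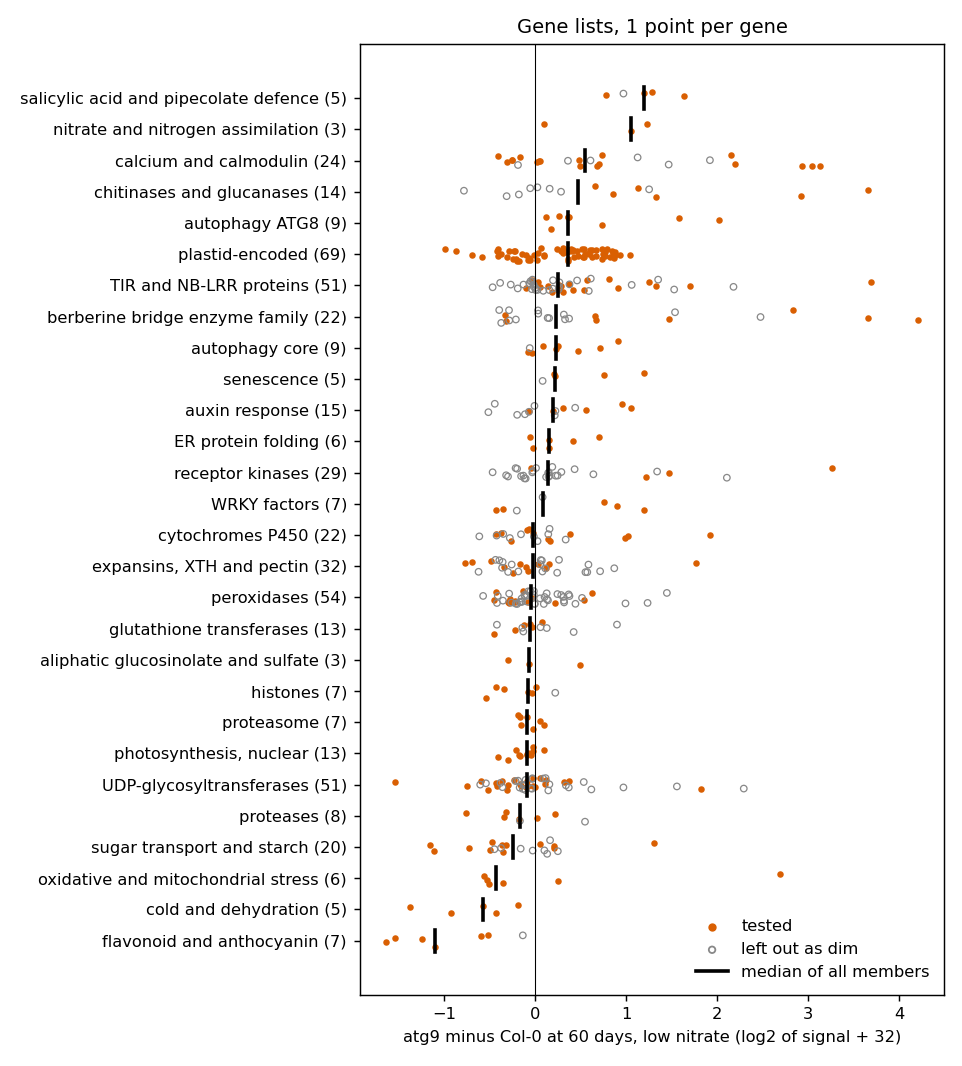
Difference between atg9 and Col-0 at 60 days on low nitrate (x axis, log2 of (signal + 32)) for every gene with a probe set in the gene lists with at least 3 tested members, 1 point per gene; orange points were tested, open grey points were left out as dim, and the black bar is the median of all members, whose number stands in brackets. Single genes of the berberine bridge enzyme (up to 4.21), TIR and NB-LRR (3.69), chitinase (3.66), receptor kinase (3.26) and calcium (3.13) lists reach furthest to the right, and the flavonoid and cold lists lie to the left of 0.

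At 30 days the 73 probe sets showed no rise in atg9 over Col-0. That comparison uses other arrays of the same genotypes. Its median over the 73 was -0.06, with a range of -1.26 to 1.35; 31 of the 73 were above 0 and 0 passed, with a smallest adjusted p of 0.819 among them. Over all tested probe sets 0 were higher past the threshold at 30 days and 1 was lower (0.00733%), with 772 at an unadjusted p under 0.05. Differences of 1 or more in both cultures were found for 10 probe sets higher and 7 lower in atg9, none of them among the 73. The Col-0 array of culture 1 at 30 days stood apart, with a lower quartile of 89.1 against 26.4 to 38.9 on the other 15 arrays; the median over the 73 was -0.19 in that culture and 0.09 in culture 2 alone. Without the other Col-0 array, 871 probe sets passed at 30 days. The 1 gene of the naming rule with a difference over 1 at 30 days among those that rose was AT1G57630, at 1.35.

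A test of the change itself did not single out probe sets. The age difference of atg9 minus that of Col-0 had a median of 3.26 over the 73 and was above 0 in all of them, but this reuses the arrays that chose them. Over all probe sets 0 passed by limma, and 673 had an unadjusted p under 0.05; the smallest adjusted p, 0.0681, was that of AT3G47540. With only the 8 arrays of atg9 and Col-0 on low nitrate in the fit, 11 passed, all higher, and 293 passed when Col-0 at 30 days was left with the array that stood apart.

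The values of each genotype at both ages were set side by side as a description, since both age differences reuse the 60-day arrays that chose the 73. Between 30 and 60 days 70 of the 73 rose in atg9 (14.1% of all tested probe sets rose) and 1 fell (8.94% of all fell), with a median of 3.48. In Col-0 the median was 0.07; 2 of the 73 rose (7.15% of all rose) and 3 fell (4.99% of all fell). AT3G47540 had 469 and 528 in atg9 and 400 and 474 in Col-0 at 30 days. With age it rose in atg9, by 1.29 (limma adjusted p = 0.00442), and fell in Col-0, by 1.45 (adjusted p = 0.00599). AT5G40690, by contrast, had 78.4 and 56.4 in atg9 and 137 and 76.6 in Col-0 at 30 days, and its age difference in Col-0 was 0.06 (adjusted p = 0.941).

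The same transcripts were higher in the other mutant. On high nitrate, atg5 and its Col-0 controls share no array with the atg9 comparison. There all 73 were higher in atg5 than in Col-0 in both cultures, by any amount and with no share of all tested beside this count. The median of the 73 was 2.63, with a range of 0.42 to 5.86, against a median of -0.03 over all tested probe sets. Of the 73, 40 passed there (54.8%), against 70 of all tested probe sets that were higher (0.513%) and 5 that were lower (0.0366%). The brightness limit and the spread of each probe set came from all arrays of the study, those on high nitrate included. Probe sets dim in Col-0 could pass the limit through atg5, and the 73 were chosen with the spread that this test reuses. The percentages that passed are therefore not an independent contrast, and the limit bears on the count of all 73 above and on the next count too. A difference of 1 or more in both cultures was reached by 68 of the 73, against 3.21% of all tested probe sets. AT1G62760 (4.86), AT1G30700 (4.78) and AT3G61930 (4.95) were among those that passed. AT3G47480 (1.72, adjusted p = 0.128) and AT1G57630 (2.11, adjusted p = 0.139) did not; AT3G47480 had 1378 and 1915 in atg5 against 337 and 652 in Col-0 on high nitrate. ATG8H had 1235 and 3001 in atg5 against 342 and 351 in Col-0 on high nitrate, a difference of 2.37 (adjusted p = 0.0301).

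At 60 days on low nitrate, atg5 was compared with the same Col-0 arrays as atg9, so the values are only set side by side. The 73 had a median of 3.14 in atg9 against Col-0 and 4.29 in atg5 against Col-0; 72 of them passed in atg5, where 4.76% of all tested probe sets were higher and 2.15% lower. The difference was smaller in atg9 than in atg5 for 72 of the 73. ATG8H lay at 2.02 in atg9 and 3.85 in atg5, CHI at 3.66 in atg9 and 5.45 in atg5, ADPG1 at 3.70 in atg9 and 6.04 in atg5, and AT3G47540 at 2.92 in atg9 and 3.94 in atg5.

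The direct test of atg9 against atg5, which holds no Col-0 array, did not separate the mutants on these transcripts. It reuses the 2 atg9 arrays that chose the 73 as high, so its values on them are not free of that choice. Of the 73, 72 were lower in atg9 than in atg5, by a median of -1.11 with a range over the 73 of -2.34 to 0.78, and 0 passed, with a smallest adjusted p of 0.376. The median over all tested probe sets in this test was 0.09. Over all tested probe sets 1 passed (0.00733%), the unnamed probe set that is dim on the atg9 arrays, and 1123 had an unadjusted p under 0.05. The atg5 array of culture 1 stood apart from its replicate, with a GAPDH 3′ to 5′ ratio of 4.25, against 1.28 to 2.06 on the other 15 arrays, and in culture 2 alone, which lacks it, 72 of the 73 were lower in atg9 with a median of -1.51, against 65 with a median of -0.74 in culture 1. Without the atg5 array of culture 2, 81 probe sets passed. A difference of about 1 unit between the mutants was not resolved by 2 arrays of each.

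**Figure D4:**
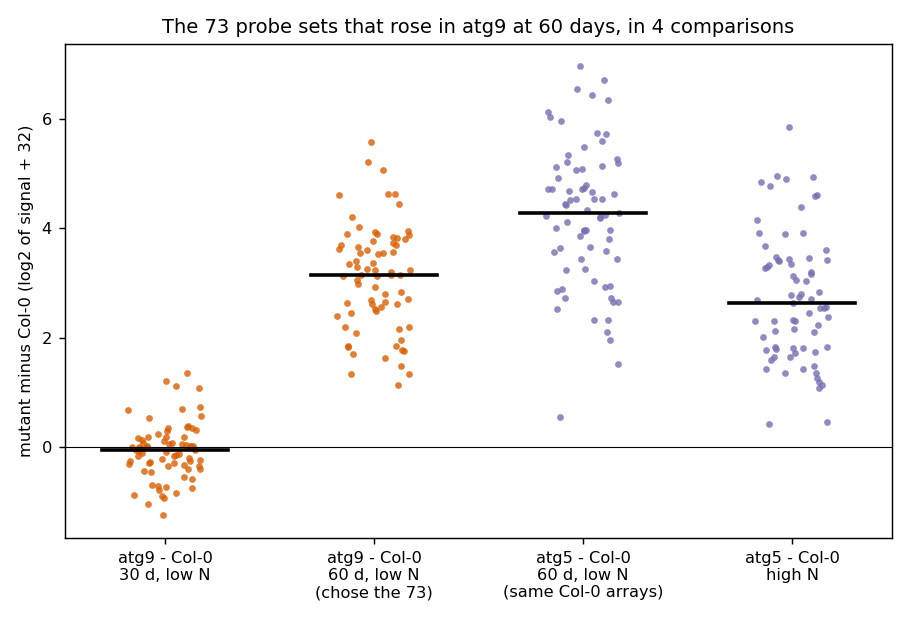
The 73 probe sets that rose in atg9 at 60 days on low nitrate, as mutant minus Col-0 (y axis, log2 of (signal + 32)) in 4 comparisons; each point is a probe set and the black bar the median. The points lie around 0 in atg9 at 30 days (median -0.06), and above 0 in atg9 at 60 days (3.14, the comparison that chose them), in atg5 at 60 days (4.29, with the same Col-0 arrays) and in atg5 on high nitrate (2.63, with other arrays).

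**Figure D5:**
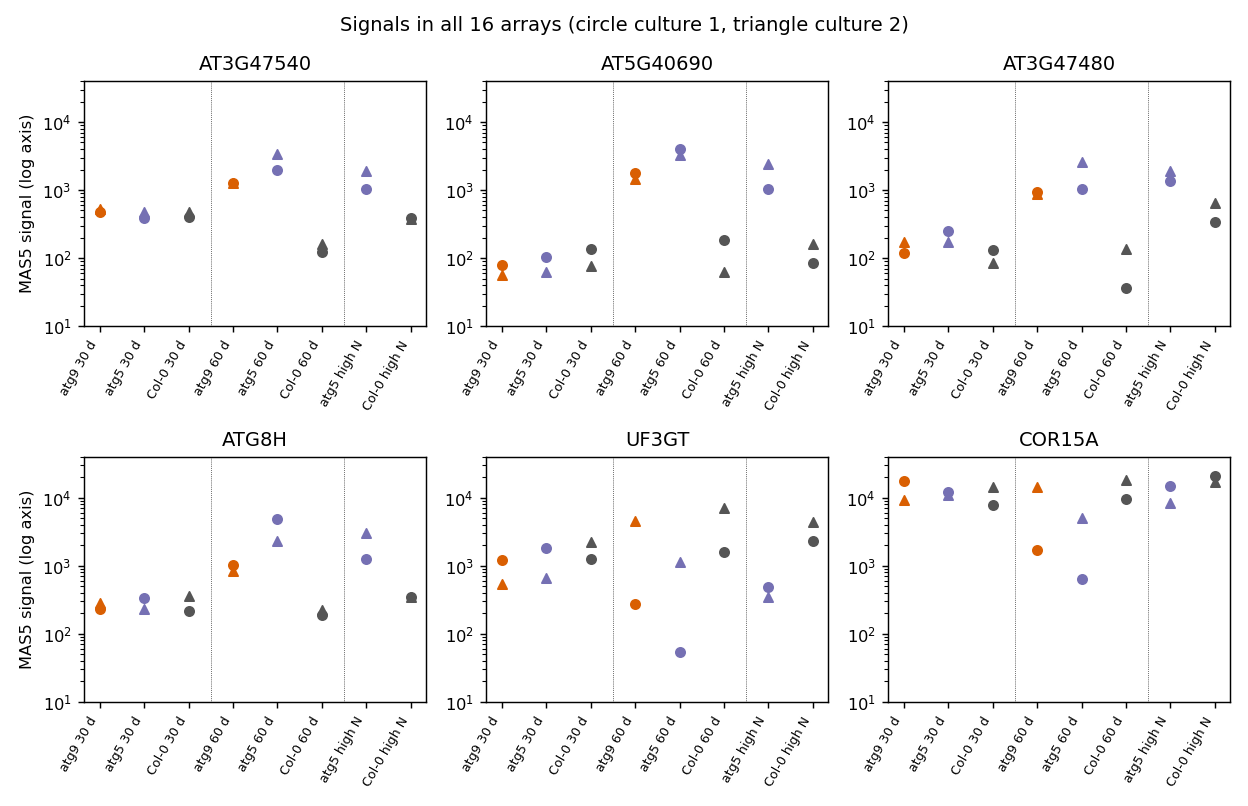
Signals (linear intensity on a log axis) of 6 genes on all 16 arrays, by genotype within 30 days, 60 days (both low nitrate) and high nitrate, with circles for culture 1 and triangles for culture 2; orange is atg9, purple atg5 and grey Col-0. AT3G47540, AT5G40690, AT3G47480 and ATG8H are high in atg9 and atg5 at 60 days and in atg5 on high nitrate, while UF3GT and COR15A spread between cultures within a genotype at 60 days, with 273 and 4532 for UF3GT in atg9.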

How the data were processed

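Biotin-labelled total RNA of whole rosettes was measured on 16 Affymetrix arrays in 8 groups of 2. The authors deposited 1 intensity per probe set and array, with MAS5 as the tool per the submitters' processing notes and its version not given in the sources used here. The values are linear, and their trimmed mean (2% off each end) was 500.04 to 500.05 on every array, so each had been scaled. The table gives no detection calls, and the number of arrays limits the precision.

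The 64 control probe sets were left out, 32 was added, log2 was taken, and the 40% of 22746 probe sets with the lowest mean over all arrays (under a signal of 97.6) were left out, which left 13648. limma 3.58.1 in R 4.3.3 (lmFit, eBayes with trend, 7 residual and 4.84 prior degrees of freedom) was fitted to all 16 arrays with 8 group means and culture as a block; tests were two-sided. The procedure was tested on simulated data. The pairing by culture comes from the study design; the difference between cultures correlated at r = 0.561 across probe sets between atg9 and Col-0 at 60 days and from -0.17 to 0.71 over 28 pairs of groups, 8 of them over 0.1.

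The probe annotation gives 1 gene to 13513 probe sets, several to 503 and lists 8730 not at all; 7311 of those tested had 1 gene. Of the named, 13436 were found in the RefSeq gene table, used for names and neighbours only. Roles are background knowledge. Genes were named by rule: up to 20 largest passing rises and falls, the 10 highest and lowest by the smaller difference of the cultures, up to 4 members per list by p, and 7 probe sets known from earlier results. The members, lists and tests were chosen with earlier results of these data known. Lists were matched by locus, symbol or description, and 1 probe set stood for each gene. Alternatives changed the scale, the filter, the normalization, the variance model, the block and the arrays.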

Additional observations from a re-analysis of the deposited data

How the results depend on the processing

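The count of 74 probe sets (73 higher) for atg9 against Col-0 at 60 days stayed between 54 and 83 with 64 added, with quantile normalization, with no filter, with no trend, without the 2 arrays that stand apart, with the 8 low-nitrate arrays of atg9 and Col-0 and with a filter on the mean without the added 32, the last chosen after seeing the data. It was 6 (5 higher) with signals under 1 set to 1 and nothing added, and 12 with the dimmest 60% left out, of which 6 and 12 were among the 74. Leaving out 1 array gave 1 to 7: 1 without atg9 of culture 1, 3 without atg9 of culture 2, 7 without Col-0 of culture 1 and 1 without Col-0 of culture 2. Such a fit has 1 array in an arm and assumes that it varies like the others. AT3G47540 passed in all 4 of these and in all other alternatives, with differences of 2.71 to 3.19 and adjusted p-values of 0.000292 to 0.0407, and 67 of the 74 passed in none of the 4. Of the 24 calls that the naming rule took, 15 were kept with no filter, 16 without the 2 arrays apart, 20 with quantile normalization, 4 with signals under 1 set to 1 and 5 with the 60% filter. Without the replicate block 78 passed, 71 of them shared, and the counts of the other comparisons did not move. At 30 days the count of 1 became 0 with 64 added, no filter, the 60% filter, without the 2 arrays apart and with 8 arrays; leaving out 1 array gave 0 to 871, the last without Col-0 of culture 2, which leaves the Col-0 array that stands apart alone in its group. For the age change the count of 0 became 1 with signals under 1 set to 1, 1 with the 60% filter and 11 with 8 arrays; leaving out 1 array gave 0 to 293, the last also without Col-0 at 30 days of culture 2. For atg9 against atg5 the count of 1 became 0 with the 60% filter, and leaving out 1 array gave 1 to 81, the last without atg5 of culture 2. The causes of these changes were not tested, beyond the smaller number of arrays or probe sets. No named gene that passed in the main fit or in an alternative changed direction between them. Changes of direction in values that passed in neither were not counted. Of 1580 values of named genes that had not passed, 7 did so, and 23 of 386 list medians moved by more than the spread.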

Other observations

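Other named transcripts that rose in atg9 at 60 days fell outside the naming rule and were chosen after their values were seen. AT1G13340, for a protein of the IST1 type that acts on the sorting of membrane proteins to the vacuole, had 873 and 752 in atg9 against 90.6 and 103 in Col-0 and rose by 2.71 ± 0.34 (limma adjusted p = 0.0111). The defence protein gene OSM34, for osmotin, had 802 and 612 in atg9 against 109 and 76.6 in Col-0 and rose by 2.57 ± 0.44 (adjusted p = 0.0257). AT5G62150, with a LysM domain of the kind that binds chitin and related sugars, rose by 2.19 ± 0.34, the methionine sulfoxide reductase gene MSRB9 by 2.08 ± 0.36, and the chaperone gene Hsp70-2 by 1.96 ± 0.36. Of the 35 named genes that rose, 10 belonged to a list.

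A pair of these genes departed from the common pattern. AT3G50900 had 607 and 831 in atg9 against 261 and 265 in Col-0 and rose by 1.33 ± 0.24 (adjusted p = 0.0374), while it lay at 0.55 in atg5 at 60 days and 0.42 in atg5 on high nitrate (adjusted p = 0.716); it was the 1 of the 73 with a larger difference in atg9 than in atg5. AT1G23390, for a kelch F-box protein that marks chalcone synthase for breakdown, rose by 1.63 ± 0.31 (adjusted p = 0.0469) in atg9 against Col-0 at 60 days, with 1125 and 759 in atg9 against 226 and 338 in Col-0. It fell with age in atg9, by 1.58 (adjusted p = 0.00534), and in Col-0, by 2.1 (adjusted p = 0.00349), and lay at 1.11 in atg9 against Col-0 at 30 days (adjusted p = 0.819).

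In atg9 at 30 days on low nitrate, 16 of the 73 were higher than in Col-0 in both cultures and 24 lower in both, and 0 reached 1 in both. In atg5 at 30 days, with the same Col-0 arrays, 41 were higher in both cultures and 7 lower in both, and 4 reached 1 in both, against 0.359% of all tested probe sets. The counts by any amount have no share of all tested probe sets beside them, so they only describe the 73. Both comparisons include the Col-0 array of culture 1 that stood apart.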
